A study of Mus musculus with 33 samples.

Results

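Glutathione is the main low-molecular-weight thiol of brain cells, and this account covers 9 genes that make it, break it down, recycle it or feed it with cysteine. They were chosen by name, as the cytosolic breakdown enzymes Chac1, Chac2 and Ggct, the synthesis genes Gclc, Gclm and Gss, the reductase gene Gsr, and the transsulfuration genes Cbs and Cth. They are 9 of the 54752 genes listed in the forebrain files, and all 9 are also among the 22523 genes of the footprint files and passed the filter on low counts in every comparison.

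The study compared mice with different levels of n-Tr20, a neuronal nuclear-encoded tRNA that reads the arginine codon AGA. Its 33 libraries are 21 of forebrain RNA from 20 mice, 6 of hippocampus RNA and 6 of hippocampus ribosome footprints, the pieces of mRNA protected by ribosomes. In the forebrain there were 4 mice in each of 5 groups: C57BL/6NJ mice with n-Tr20 deleted (B6N knockout), C57BL/6J mice with n-Tr20 deleted (B6J knockout), C57BL/6J mice with their own hypomorphic n-Tr20 (B6J), C57BL/6J mice that also carry a transgene with the B6N form of n-Tr20 (B6J transgenic) and C57BL/6NJ mice with wild-type n-Tr20 (B6N). In the hippocampus there were 3 libraries each of B6N knockout and B6N for each assay. All mice were 8 weeks old, and the labels give no treatment. The strains differ in more than n-Tr20, so the B6J, B6J transgenic and B6J knockout groups share a background that the B6N groups lack. The hippocampus mice are labelled C57BL/6NJ, while the headers of their RNA files, and the protocol for those libraries, name B6JN mice. n-Tr20 itself was not measured by these libraries, so the genotype labels were not checked at the targeted gene.

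Glutathione is built from glutamate, cysteine and glycine in a pair of steps: glutamate-cysteine ligase, made of a catalytic subunit (Gclc) and a modifier subunit (Gclm), joins glutamate to cysteine, and glutathione synthetase (Gss) adds glycine. Glutathione reductase (Gsr) returns the oxidized form to the reduced one with NADPH. Inside the cell, the γ-glutamylcyclotransferases Chac1 and Chac2 cleave reduced glutathione to 5-oxoproline and cysteinylglycine, while Ggct acts on other γ-glutamyl amino acids. Cystathionine β-synthase (Cbs) and cystathionine γ-lyase (Cth) make cysteine from homocysteine. Chac1 and Cth are known targets of Atf4, a transcription factor induced in the integrated stress response, and Gclc, Gclm and Gsr of the oxidative stress factor Nfe2l2 (NRF2).

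Depth and library composition bear on all that follows. Forebrain libraries of the first batch held between 14.7 M and 24.2 M counts (M is 1000000 counts), the B6J knockout libraries 14.8 M to 20.7 M. Hippocampus RNA libraries held 35.8 M to 60.4 M counts in knockout and 41.1 M to 49.5 M in B6N, and footprint libraries 7.6 M to 17.9 M in knockout and 9.1 M to 11.2 M in B6N. The B6J knockout libraries are all in batch 2, where the only other library is a repeat of transgenic mouse 4 (38.5 M), so their comparisons rest on that 1 mouse for the batch difference. B6J knockout mice 1 to 3 were female by Xist (334 to 369 CPM, against 2.04 CPM in knockout 4), as was the mouse of hippocampus knockout RNA library 1 (1243 CPM). Footprint knockout library 1 had 45.5 CPM of the Y-linked Ddx3y, against 99.4 and 107 CPM in the other knockout libraries and 67.1 to 100 CPM in B6N. CPM are counts per 1000000 after TMM scaling of library sizes. These are bulk tissues, in which fewer cells of a type and less RNA per cell cannot be told apart.

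The levels of the members differed widely, per length of transcript. In B6N knockout forebrain the catalytic subunit gene Gclc had 8.75 ± 1.11 TPM, the modifier subunit gene Gclm 7.56 ± 0.641 TPM, Ggct 6.26 ± 0.677 TPM and Gsr 5.78 ± 0.497 TPM, against 9.42 ± 0.656, 8.63 ± 0.384, 6.43 ± 0.487 and 6.57 ± 0.575 TPM in B6N forebrain (SD, n = 4 each; TPM are the deposited transcripts per 1000000, summed per gene). A middle tier of Cbs, Chac2 and Gss had 4.93 ± 0.692, 4.17 ± 0.514 and 3.96 ± 0.274 TPM in B6N knockout forebrain, against 4.58 ± 0.797, 4.28 ± 0.577 and 4.37 ± 0.571 TPM in B6N forebrain, and the members of this tier lie within 1 SD of each other in B6N. The lowest pair was Chac1 and Cth. Chac1 had 2.11 ± 0.0748 TPM in B6N knockout and 0.789 ± 0.181 TPM in B6N forebrain, and Cth had 1.27 ± 0.138 TPM in B6N knockout and 1.16 ± 0.171 TPM in B6N forebrain. In B6N, Ggct and Gsr also lay within 1 SD of each other. In TPM summed per gene, Chac1 was the lowest member in B6N. In B6N knockout it stood above Cth (2.03 to 2.19 TPM for Chac1, against a mean of 1.27 TPM for Cth). The order of this pair in B6N depends on the measure: the coding transcript of Cth alone had 0.796 ± 0.271 TPM. In CPM, which take no account of length, Cth had a mean of 2.41 and Chac1 of 2.68 in B6N.

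**Figure D1:**
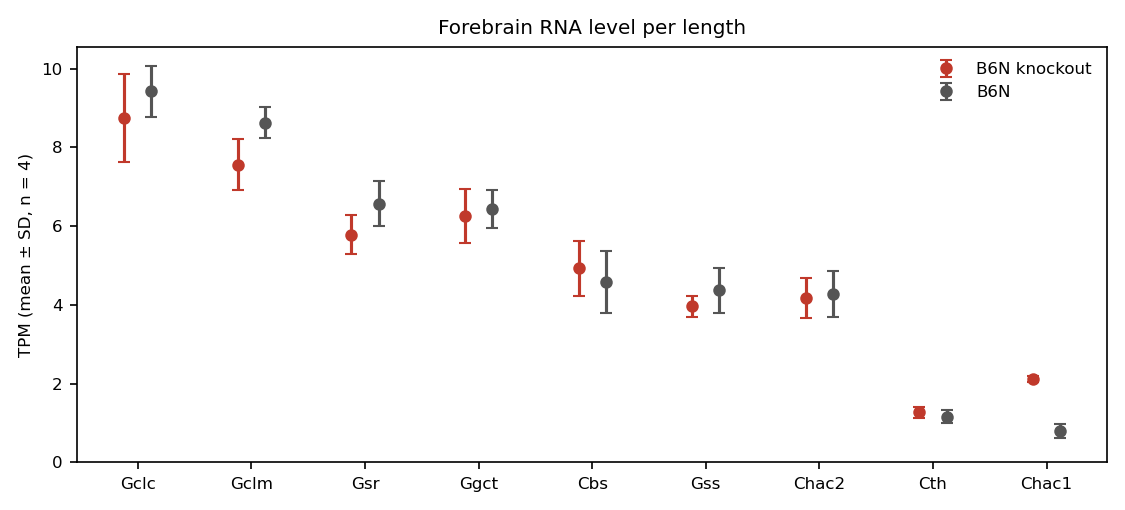
Level per length of the 9 members in B6N knockout (red) and B6N (grey) forebrain RNA, in TPM, ordered by the B6N mean; points are means and bars SD over 4 mice. Chac1 (2.11 TPM in B6N knockout, 0.789 TPM in B6N) is the member whose groups stand apart.

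The annotated transcripts behind these levels differ in kind. Chac1 has 1 annotated transcript and Chac2 has 2, all coding. For Ggct the coding transcripts held 12.2% ± 1.78 of the TPM in B6N knockout and 13.9% ± 2.46 in B6N forebrain (SD, n = 4 each), the rest lying mostly on a short processed transcript and a transcript annotated for nonsense-mediated decay, so most of the gene's TPM lies on models not annotated as protein coding. For Gss the coding share was 53.8% ± 3.63 in B6N knockout and 51.8% ± 2.57 in B6N, with retained-intron transcripts holding most of the rest. The share for Gclm was 65.4% ± 8.5 in B6J knockout, against 75.0% ± 5.31 in B6J and 75.5% ± 6.06 in B6J transgenic forebrain. Transgenic mouse 4 alone had a Gclm coding share of 61.6% in its batch 2 library and 73.5% in its batch 1 library; batch and genotype cannot be told apart in the knockout share. These shares come from a model that splits reads between overlapping transcripts, and short transcripts weigh heavily in TPM: of the Ggct estimated counts in B6N, 50% were on the long coding transcript.

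The start regions of the members were searched for a pair of short motifs, the composite C/EBP-ATF core TGATGNAA, bound by Atf4 with a C/EBP partner, and the antioxidant response core TGACNNNGC, bound by NRF2. Both strands were read over 250 bases before to 50 bases after a RefSeq start site (GRCm38.p6), where N is any base. For Gclm, Ggct and Cbs that site lies inside the gene's outer RefSeq bounds. Entries were found for 6 of the 9 members: Chac1, Chac2, Ggct, Gclm, Gss and Cbs. The windows of Chac1 (chr2:119350992-119351291, plus strand) and Chac2 (chr11:30986316-30986615, minus strand) are shown because these genes encode enzymes of the same activity and only the first was called in any comparison; capitals mark the one match.
Chac1: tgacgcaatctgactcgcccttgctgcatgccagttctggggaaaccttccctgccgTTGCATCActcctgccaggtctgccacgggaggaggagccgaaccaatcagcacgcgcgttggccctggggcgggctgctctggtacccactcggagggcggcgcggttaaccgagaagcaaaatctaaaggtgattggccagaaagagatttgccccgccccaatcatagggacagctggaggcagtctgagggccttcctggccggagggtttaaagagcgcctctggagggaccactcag
Chac2: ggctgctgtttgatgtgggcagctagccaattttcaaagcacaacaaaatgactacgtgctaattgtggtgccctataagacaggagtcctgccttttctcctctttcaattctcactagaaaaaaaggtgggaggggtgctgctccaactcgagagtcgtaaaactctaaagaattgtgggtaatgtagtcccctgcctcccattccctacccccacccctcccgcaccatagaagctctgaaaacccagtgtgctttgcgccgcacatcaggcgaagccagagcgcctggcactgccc
The Chac1 match reads TTGCATCA on the gene's strand, at -193 to -186 from the start, which is the core on the opposite strand. Of 32851 RefSeq promoters of this length, 3.97% hold TGATGNAA, and of the 6 member windows only that of Chac1 does. The antioxidant core was found in Gclm (GCACCGTCA, at -134 to -126) and in Ggct (GCGACGTCA, at -174 to -166, and TGACGCTGC, at 5 to 13), and in 12.4% of all promoters. A match describes these letters in this window and is not a measured binding site.

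Loss of n-Tr20 in B6N mice raised Chac1 in the forebrain and changed no other member past the test. Chac1, at chr2:119351242-119354326 (GRCm38), had 7.28, 7.34, 8.16 and 7.28 CPM in the B6N knockout mice, against 3.34, 2.52, 2.13 and 2.71 CPM in the B6N mice. The groups were far apart, the lowest knockout lying more than 3 CPM above the highest B6N mouse, on 129 to 185 counts per knockout library and 52 to 70 per B6N library. The rise was 2.82-fold (log2 fold change 1.5 ± 0.12 SE, 95% CI 1.24 to 1.75; adjusted p = 3.86e-09, edgeR quasi-likelihood F test, Benjamini-Hochberg adjusted over 25151 genes). A gene is called here when its adjusted p is under 0.05. Of the 9 members 1 was called, where 1.91% of all genes tested were. The groups of the other 8 members overlapped, where the groups of 4.44% of all genes were apart with the knockout higher and of 4.14% with it lower.

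The remaining breakdown and synthesis genes lay close to B6N levels in the B6N knockout forebrain. Their log2 differences were -0.01 ± 0.11 for Chac2, -0.10 ± 0.09 for Ggct, -0.03 ± 0.05 for Gclc, -0.04 ± 0.05 for Gclm and -0.07 ± 0.08 for Gss. For the ligase subunits the 95% intervals ran from -0.13 to 0.06 (Gclc) and from -0.15 to 0.07 (Gclm), which excludes a change of Chac1's size in either. The reductase gene Gsr differed by -0.08 ± 0.07. The transsulfuration genes were both somewhat higher without passing the test: Cbs by 0.20 ± 0.07 (adjusted p = 0.214, edgeR) and Cth by 0.25 ± 0.16 (adjusted p = 0.574, edgeR). The median over the other 8 members was -0.04, against a median over all genes of -0.001.

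Chac2, the second enzyme that cleaves glutathione, had 5.25, 6.17, 5.16 and 5.99 CPM in B6N knockout, against 6.16, 5.43, 5.29 and 5.88 CPM in B6N forebrain. These ranges lie over each other. Per length, Chac1 reached 0.512 ± 0.0593 of the Chac2 level in B6N knockout, against 0.183 ± 0.0196 in B6N forebrain (ratio of TPM, SD, n = 4 each). In B6J knockout forebrain the ratio was 0.526 ± 0.12, against 0.276 ± 0.0465 in B6J and 0.189 ± 0.0415 in B6J transgenic forebrain. In TPM, Chac2 was the higher of the pair in every forebrain library outside the repeat, the highest ratio being 0.703. In CPM, which take no account of length, the order was reversed in the knockout group means. Chac1 and Chac2 had 7.52 and 5.64 CPM in B6N knockout, and 7.49 and 6.15 CPM in B6J knockout. Chac2 was the higher in mean CPM in the other forebrain groups. The order of the pair in knockouts therefore depends on the measure.

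**Figure D2:**
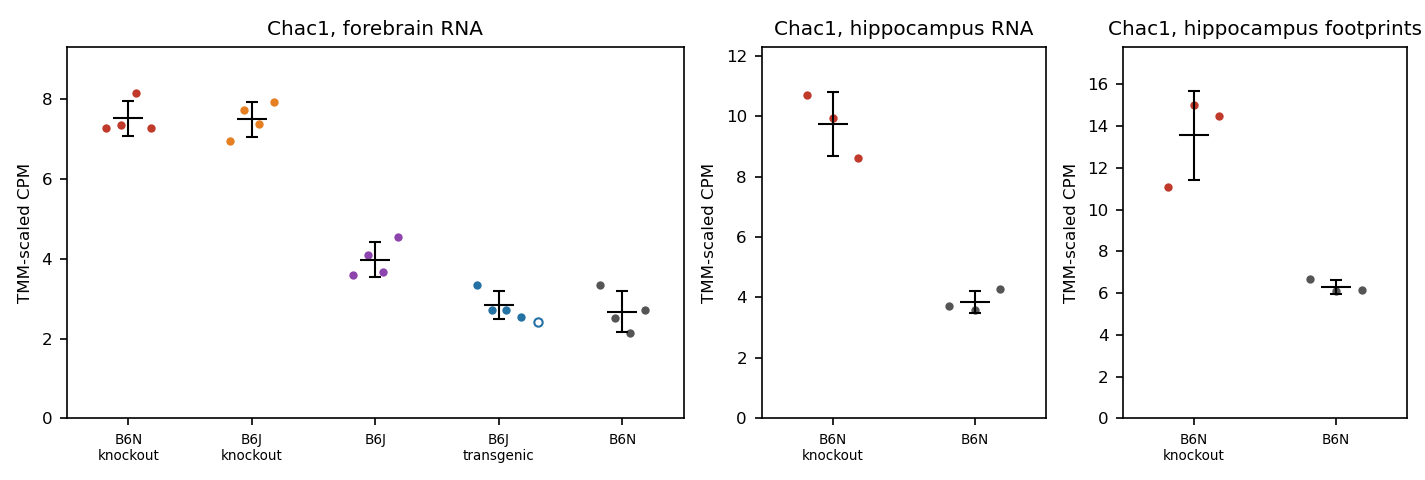
Chac1 RNA by library in forebrain (left), hippocampus RNA (middle) and hippocampus footprints (right), in TMM-scaled CPM; filled points are libraries, the open point the repeat library of transgenic mouse 4, and bars mean and SD. All knockout libraries lie above all libraries of the other groups in each panel, and B6J lies between the knockouts and B6N in forebrain.

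In B6J mice the Chac1 level was graded between those of the transgenic and the knockout mice. Chac1 had 6.95, 7.73, 7.37 and 7.93 CPM in B6J knockout, 3.58, 4.10, 3.67 and 4.54 CPM in B6J, and 3.34, 2.72, 2.72 and 2.55 CPM in B6J transgenic forebrain, where the repeat library of mouse 4 had 2.41 CPM. None of these 3 groups overlapped, although the knockouts are in another batch. Between B6J knockout and B6J, 2 members were apart (Chac1 and Cth, both higher), where 6.43% of all genes were apart upward and 8.32% downward. The B6J knockout exceeded B6J transgenic 2.70-fold (1.43 ± 0.31, 95% CI 0.80 to 2.06; adjusted p = 0.0348, edgeR), as the 1 member called of 9, where 0.229% of 27500 genes were, and the 1 member with groups apart, where 7.44% of genes were apart upward and 7.42% downward. In this fit transgenic mouse 4 sets the batch difference and the transgenic level is that of mice 1 to 3. Against B6J the difference was 0.99 ± 0.30 (95% CI 0.38 to 1.60; adjusted p = 0.273, edgeR) and no member was called (0.0945% of all genes). In that comparison Chac1 alone had an unadjusted p under 0.05, DESeq2 called 0 members, with 7 of the 9 given no adjusted p, and 2121 genes had such an unadjusted p in edgeR.

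The B6J knockout call rests on few libraries. Without transgenic mouse 2 or mouse 3 the Chac1 difference from B6J transgenic was 1.39 and 1.37, at adjusted p of 0.0566 and 0.0676 (edgeR). The summed choroid plexus markers, a contaminant of forebrain dissection, were at 420 to 591 CPM in B6J knockout, against 22.4 to 77.4 CPM in B6J transgenic and 18.2 to 504 CPM in B6J forebrain, with none of the 10 markers at 0 in a whole group; their part in the result was not tested. Sex differs between 3 of the 4 knockouts and the transgenic mice, and its part was not tested. With only knockout 4, the male one, kept among the knockouts, the log2 difference of Chac1 from B6J transgenic was 1.51, against 1.43 with all knockouts.

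The partial shortage in B6J mice was tested against each of its references. Against B6J transgenic, Chac1 differed by 0.48 ± 0.14 (1.40-fold, 95% CI 0.20 to 0.77), which did not pass the adjustment (adjusted p = 0.155, edgeR), although the lowest B6J mouse at 3.58 CPM lay above the highest transgenic mouse at 3.34 CPM. No member was called there by edgeR or DESeq2 (0.25% of all genes by edgeR), and DESeq2 gave 3 members no adjusted p. Chac1 was the 1 member at an unadjusted p under 0.05, as were 2592 genes. It was also the 1 member with groups apart (2.56% of genes upward and 2.47% downward). Against B6N, Chac1 was 1.49-fold higher in B6J (0.58 ± 0.14, 95% CI 0.30 to 0.86; adjusted p = 0.0204, edgeR), the 1 member called where 1.73% of genes were. That call was lost without any 1 of B6J mice 2 and 4 and B6N mice 2, 3 and 4, with log2 differences from 0.48 to 0.59 and adjusted p from 0.0533 to 0.115.

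With the transgene, Chac1 in B6J transgenic forebrain was at 2.55 to 3.34 CPM, against 2.13 to 3.34 CPM in B6N forebrain. The ranges overlap, and the difference was 0.10 ± 0.14 (95% CI -0.19 to 0.39; adjusted p = 0.908, edgeR). No member was called in this comparison by edgeR or DESeq2 (0.366% of all genes by edgeR), and DESeq2 gave 2 members no adjusted p. Cbs and Gsr had unadjusted p under 0.05, as had 2230 genes.

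The sizes of the Chac1 changes were also compared with each other. The effect of complete loss in B6N exceeded the effect of low n-Tr20 in B6J (B6J minus B6J transgenic) by 1.01 ± 0.19 on the log2 scale (95% CI 0.63 to 1.40; adjusted p = 0.0228, edgeR). Chac1 was the 1 member called, where 0.0596% of all genes were. It was not called without the robust step (adjusted p = 0.0693) or with transcript length offsets (adjusted p = 0.101, both edgeR). The call was lost without any 1 of B6N knockout 3, B6J mice 2 and 3 and B6N mice 3 and 4, with differences from 0.92 to 1.03 and adjusted p from 0.0548 to 0.0874. Complete loss in B6J and in B6N differed in effect on Chac1 by -0.07 ± 0.33 (95% CI -0.73 to 0.60; adjusted p = 0.993, edgeR), an interval that still allows effects differing by more than 1.5-fold. No member was called in that contrast by edgeR or DESeq2 (0.04% of all genes by edgeR), but DESeq2 gave 6 members no adjusted p. In edgeR 0 members had an unadjusted p under 0.05, and 2171 genes had one.

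**Figure D3:**
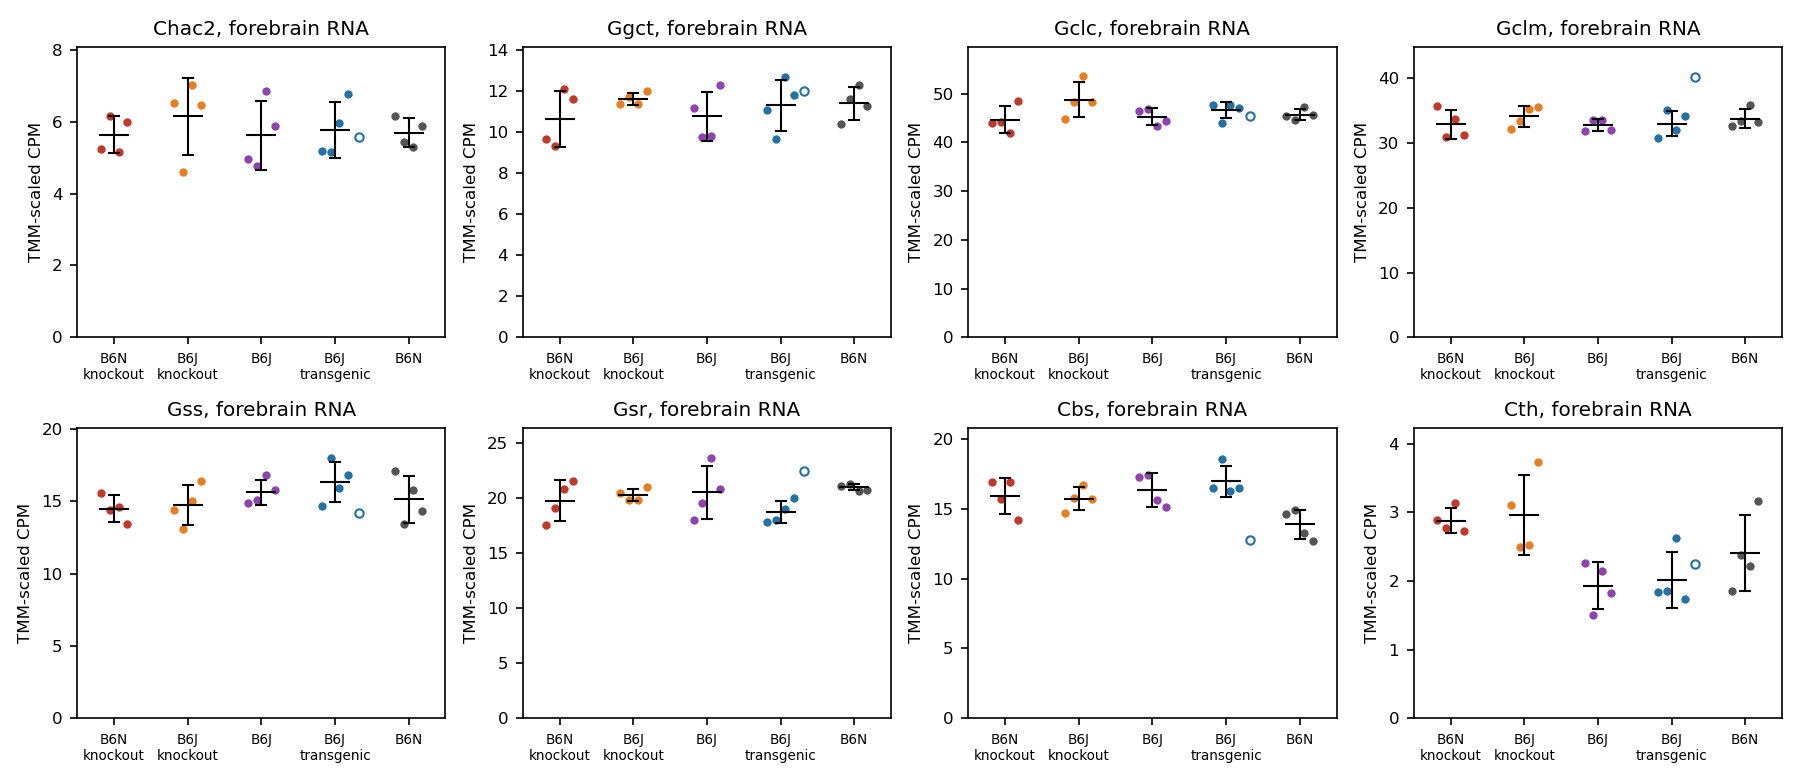
Forebrain RNA of the other 8 members by library, in TMM-scaled CPM with axes from 0; filled points are mice, open points the repeat library of transgenic mouse 4, bars mean and SD. The groups overlap for most members; Cbs is higher in B6J transgenic and B6J than in B6N, and the repeat library of mouse 4 departs from its batch 1 library for Gclm and Cbs.

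Among the other members, Cbs and Cth showed the largest spread between groups. Cbs, which condenses homocysteine with serine, had 16.9, 15.7, 16.9 and 14.2 CPM in B6N knockout, 14.7, 15.8, 16.7 and 15.7 CPM in B6J knockout, 17.3, 17.4, 15.6 and 15.1 CPM in B6J, 16.5, 18.6, 16.3 and 16.5 CPM in B6J transgenic, and 14.6, 14.9, 13.3 and 12.7 CPM in B6N forebrain. All B6J and B6J transgenic mice of batch 1 lay above all B6N mice. The differences from B6N were 0.24 ± 0.08 for B6J (adjusted p = 0.094) and 0.29 ± 0.07 for B6J transgenic (adjusted p = 0.0955, both edgeR), so neither was called; with the replicate number as a block the second was (0.29, adjusted p = 0.0454, edgeR). Groups apart upward were seen for 5.14% of all genes in B6J minus B6N (2 members, Chac1 and Cbs; 3.92% were apart downward) and for 2.39% in B6J transgenic minus B6N (1 member, Cbs).

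The level of Cbs also moved with the batch: transgenic mouse 4 had 12.8 CPM in batch 2 and 16.5 CPM in batch 1. The corresponding values for that mouse were 40.3 and 34.2 CPM for Gclm, 22.5 and 20 CPM for Gsr and 2.25 and 1.74 CPM for Cth. Differences of B6J knockout from the other forebrain groups are therefore given from the fit with a batch term, in which they carry wide intervals. For Cbs they were 0.25 ± 0.17 against B6J transgenic and 0.31 ± 0.16 against B6J. Without the batch term the direction turns: the ratio of mean CPM was 0.926 for B6J knockout over B6J transgenic and 0.962 for B6J knockout over B6J, so the positive sign rests on the repeat library of mouse 4.

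Cth, which releases cysteine from cystathionine, was among the lowest members, with 27 to 76 counts per forebrain library outside the repeat. It had 2.88, 2.77, 3.13 and 2.72 CPM in B6N knockout, against 1.86, 2.38, 2.21 and 3.17 CPM in B6N forebrain, and those ranges overlap through B6N mouse 4. In B6J knockout it had 3.10, 2.49, 2.52 and 3.73 CPM, against 2.26, 1.5, 2.15 and 1.83 CPM in B6J and 1.84, 1.85, 2.63 and 1.74 CPM in B6J transgenic forebrain. The B6J knockout mice lay above all B6J mice. With the batch term the difference from B6J was 0.26 ± 0.40 (95% CI -0.57 to 1.08; adjusted p = 0.945, edgeR). Without the batch term and the repeat library, which were left out together, it was 0.62 and was called (adjusted p = 0.0213, edgeR), so the call depends on how the batch is handled.

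The synthesis and recycling genes varied little. Over the groups of batch 1, mean Gclc ran from 44.7 to 46.6 CPM and mean Gclm from 32.8 to 33.8 CPM. Gss had 14.5 ± 0.92 CPM in B6N knockout, 15.6 ± 0.86 CPM in B6J, 16.4 ± 1.39 CPM in B6J transgenic and 15.2 ± 1.62 CPM in B6N forebrain (SD, n = 4 each), and all its groups overlapped. Gsr had 17.9, 18, 19 and 20 CPM in B6J transgenic, against 21.1, 21.3, 20.7 and 20.8 CPM in B6N forebrain. These groups did not overlap (2.42% of genes were apart downward), but the difference of -0.16 ± 0.07 was not called (adjusted p = 0.493, edgeR). Ggct averaged 10.7 ± 1.36 CPM in B6N knockout and 11.4 ± 0.796 CPM in B6N forebrain, with overlapping mice.

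In the hippocampus, Chac1 was again the member that rose. Its RNA was at 10.7, 9.94 and 8.61 CPM in the knockout libraries, against 3.70, 3.58 and 4.27 CPM in the B6N libraries. The lowest knockout library had about 4 CPM more than the highest B6N one. The rise was 2.53-fold (1.34 ± 0.13, 95% CI 1.05 to 1.64; adjusted p = 0.0101, edgeR over 19352 genes), the 1 member called in a comparison with 8 genes called in all (0.0413%). It was also the 1 member with groups apart (7% of genes upward and 7.4% downward). The call was lost without any 1 of knockout 3 and B6N 2 and 3, where the log2 difference was 1.29 to 1.42 and the adjusted p 0.0528 to 0.0724. Knockout 1, the female library, was not among these. The other 8 members differed by -0.06 to 0.17, with adjusted p of 0.749 or more (edgeR), the highest being Chac2 at 0.17 ± 0.12. Choroid plexus markers summed to 87.6 to 4237 CPM in knockout and 116 to 2863 CPM in B6N RNA, and to 8160 to 18686 CPM in knockout and 6108 to 13412 CPM in B6N footprints, none of the 10 being at 0; their part in the hippocampus results was not tested.

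Ribosome footprints on Chac1 rose with its RNA. They were at 11.1, 15.0 and 14.5 CPM in the knockout libraries, against 6.66, 6.09 and 6.14 CPM in the B6N libraries, on 56 to 193 counts per library. The knockout libraries were all higher, and the rise was 2.13-fold (1.09 ± 0.20, 95% CI 0.66 to 1.52; adjusted p = 0.0127, edgeR over 13227 genes). Chac1 was the 1 member called, where 5.35% of genes were. All other members' groups but those of Chac2 overlapped. Without knockout 2, B6N 2 or B6N 3 the difference was 1.01 to 1.07 and the adjusted p 0.0507 to 0.0902. The lowest knockout value, 11.1 CPM, is that of library 1, which is low in Ddx3y. Footprints per RNA, the translational efficiency, did not differ past the test for Chac1: the ratio of CPM was 1.39 in knockout and 1.63 in B6N hippocampus, and the interaction of assay and genotype was -0.27 ± 0.23 (95% CI -0.77 to 0.22; adjusted p = 0.635, edgeR).

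**Figure D4:**
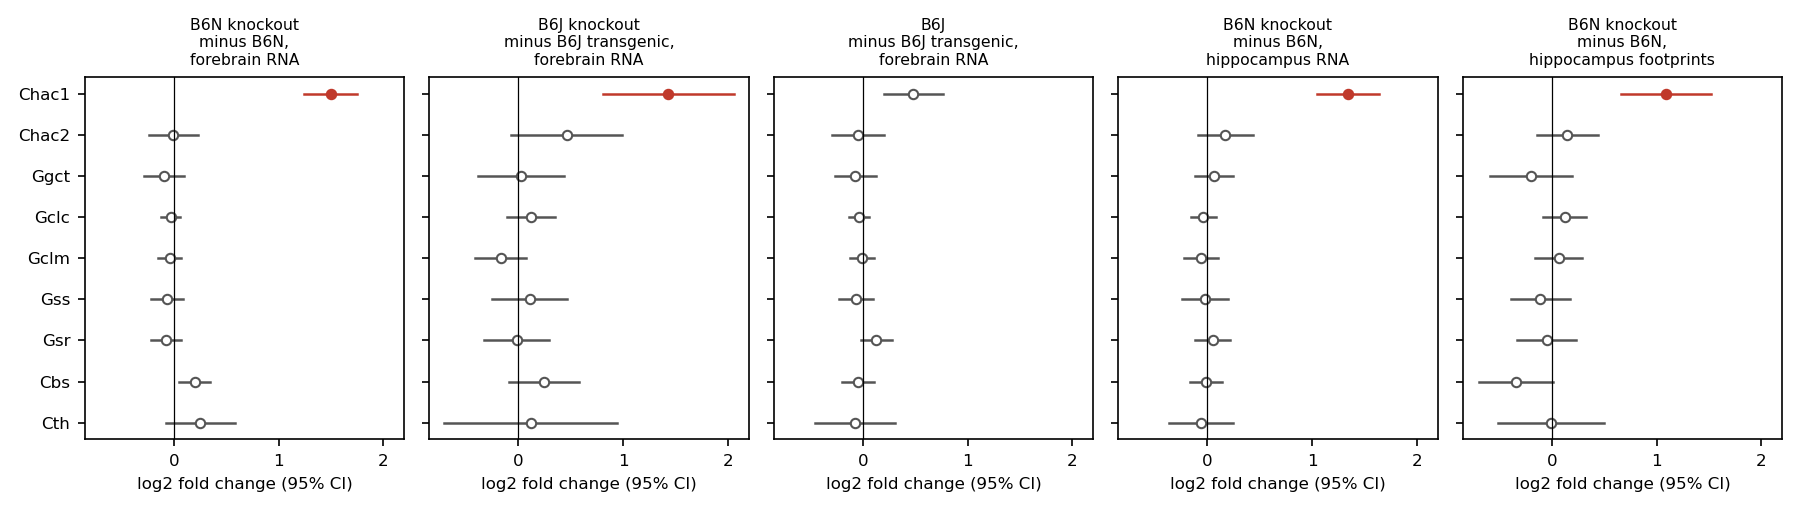
Log2 fold changes of the 9 members (points) with 95% confidence intervals (lines) in 5 comparisons; filled red points passed an adjusted p of 0.05 and open grey points did not. Chac1 stands to the right of all other members in each panel, with 1.5 in B6N knockout and 1.43 in B6J knockout forebrain, and the intervals are widest for B6J knockout.

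The footprints of the other members gave 2 patterns that did not pass the test. Chac2 had 22.7, 21.6 and 21.8 CPM in knockout, against 20.1, 19.5 and 20.1 CPM in B6N footprints. The groups did not overlap, as was the case upward for 12.9% of all genes and downward for 13.7%, and the difference was 0.15 ± 0.14 (adjusted p = 0.563, edgeR). Cbs had 29.0, 26.7 and 26.8 CPM in knockout, against 25.5, 37.8 and 41.8 CPM in B6N footprints. B6N library 1 stood apart from the other two B6N libraries and lay below the knockouts. The difference was -0.35 ± 0.16 with all libraries (adjusted p = 0.24, edgeR) and -0.53 without B6N 1 (adjusted p = 0.0304, edgeR), while Cbs RNA differed by -0.02 ± 0.07.

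Cbs is known as an astrocyte enzyme in brain. The 8 summed astrocyte markers were at 2484 to 2739 CPM in knockout footprints, against 2839 to 3348 CPM in B6N footprints, and 3 of the 8 (Fgfr3, S100b and Aldoc) fell, where 5.35% of all genes were called; none was at 0. Some markers of other cells were called lower in the same comparison, and none was called higher. Microglia had 3 of 7 (C1qa, Cx3cr1 and C1qb), summed to 310 to 328 CPM in knockout and 359 to 434 in B6N. Oligodendrocytes had 2 of 7 (Mbp and Mobp), summed to 3622 to 4361 CPM in knockout and 3697 to 4690 in B6N. Neurons had 1 of 7 (Slc17a7), summed to 7059 to 7535 CPM in knockout and 7100 to 7995 in B6N. No marker was at 0. Median log2 differences were -0.22 for astrocyte, -0.28 for microglia, -0.03 for neuron and 0.07 for oligodendrocyte markers. Endothelial, meningeal, ependymal and choroid plexus markers had medians of 0.37, 0.52, 0.2 and 0.55, with none called. In hippocampus RNA the astrocyte sum was 2122 to 2238 CPM in knockout and 2255 to 2369 CPM in B6N. The part of cell content in the Cbs values was not tested.

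Footprint density per RNA differed among the members much more than between genotypes. The ratio of footprint to RNA CPM was highest for Chac2 (2.75 in knockout, 2.80 in B6N) and Cth (2.49 and 2.45), followed by Gsr (1.85 and 1.97), and lowest for Gclc (0.999 and 0.893) and Cbs (0.852 and 1.07). RNA libraries were poly(dT)-selected and footprints were counted on a smaller gene set, so a ratio is not an absolute rate. No member's translational efficiency was called by edgeR or DESeq2, 0 members had an unadjusted p under 0.05, and the differences of the other 8 ran from -0.35 to 0.13. Over all genes edgeR called 0 (0%), with 2251 genes at an unadjusted p under 0.05, and DESeq2 called 496.

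**Figure D5:**
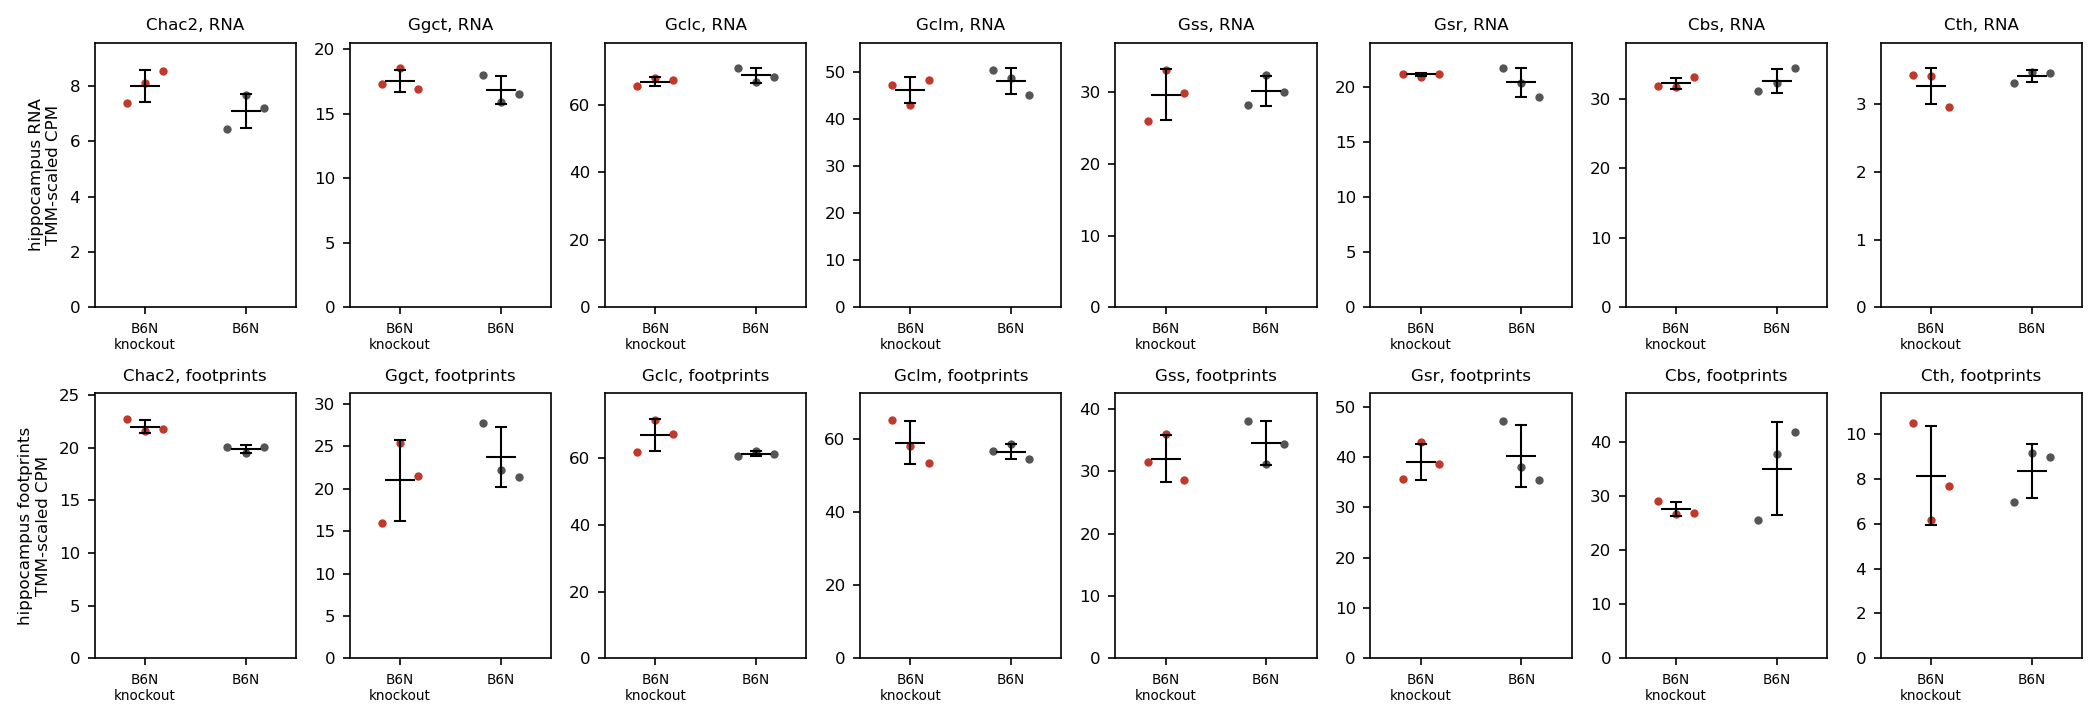
Hippocampus RNA (top) and ribosome footprints (bottom) of the other 8 members by library in B6N knockout (red) and B6N (grey), in TMM-scaled CPM with axes from 0; bars are mean and SD of 3 libraries. The genotypes overlap except for Chac2 footprints, where knockouts have 21.6 to 22.7 CPM and B6N 19.5 to 20.1 CPM, and B6N footprint library 1 is low for Cbs.

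The wider glutathione network was followed in 123 genes of 7 lists: the γ-glutamyl cycle, amino acid uptake, the methionine cycle, glutathione use, glutathione transport, the NADPH and thioredoxin system and the NRF2 pathway. In B6N knockout forebrain 1 of the 112 tested rose and 1 fell (1.79%, close to the 1.91% of all genes), and the median difference was -0.02. Slc1a4, a carrier of alanine, serine and cysteine, was at 51.7 ± 3.63 CPM in B6N knockout and 40.2 ± 2.13 CPM in B6N forebrain (SD, n = 4 each), a rise of 1.28-fold (adjusted p = 0.000101, edgeR). Gpx4, the glutathione peroxidase that acts on lipid hydroperoxides, was at 112 ± 4.35 CPM in B6N knockout and 128 ± 3.92 CPM in B6N forebrain, 1.14-fold lower (adjusted p = 0.00531, edgeR). No gene of the γ-glutamyl cycle list (11 tested) or the transport list (9 or 10 tested) was called in any of the 11 comparisons, with lowest adjusted p of 0.104 and 0.12 (edgeR).

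In B6J minus B6N forebrain 4 of 112 fell and none rose (3.57%, where 1.73% of all genes were called). Slc7a11, the cystine carrier, fell 1.19-fold, the glutathione transferase gene Gsta4 1.28-fold and thioredoxin Txn1 1.16-fold (adjusted p = 0.00986, 0.00311 and 0.0268, edgeR). Nnt, the mitochondrial NADPH-making transhydrogenase that is deleted in part in C57BL/6J mice, was 1.98-fold lower in B6J and 2.2-fold lower in B6J transgenic than in B6N; 2 gene entries carry its symbol and the counting may split reads between them, so its level is uncertain. None of the 112 was called in B6J minus B6J transgenic, and none of 114 in either B6J knockout comparison. In hippocampus footprints 3 of 102 rose and 1 fell in knockouts, a share of 3.92% that is below the 5.35% of all genes called: Slc1a4 1.39-fold, the cystine carrier's heavy chain Slc3a2 1.25-fold and methionine synthase Mtr 1.48-fold up, and Gpx4 1.41-fold down (adjusted p = 0.0256, 0.027, 0.0402 and 0.0158, edgeR). In hippocampus RNA none of 109 was called. The NRF2 list had 1 call in all comparisons, the fall of Slc7a11 in B6J minus B6N.

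For context, 19 Atf4-linked genes were followed alongside; this list was written with their response in these data known. In B6N knockout forebrain 11 of 19 rose, with a list median of 0.50, where 1.91% of all genes were called. In B6J minus B6J transgenic 5 rose (0.25% of all genes called). In B6J minus B6N 5 rose and Slc7a11 fell (1.73%), and in B6J transgenic minus B6N 0 were called (0.366%). B6J knockout had 6 up against B6J transgenic (0.229%) and 1 up against B6J (0.0945%). In hippocampus 4 rose in RNA (0.0413%) and 8 of 18 in footprints (5.35%). Since the list was chosen with that response known, these counts are a description. Atf4 itself was at 88.2 to 97.0 CPM in B6N knockout, 85.9 to 93.7 CPM in B6J knockout, 72.9 to 77.5 CPM in B6J, 58.2 to 62.8 CPM in B6J transgenic and 55.0 to 57.8 CPM in B6N forebrain. Its group means follow the same order as those of Chac1. For Chac1 the B6N and B6J knockout ranges overlap, as do those of B6J transgenic and B6N. The genes whose log2(CPM + 1) followed Chac1 most closely over the 16 batch 1 forebrain libraries were Cars (Pearson r = 0.939), Atf4 (0.938), Aldh18a1 (0.922), Asns (0.922) and Sars (0.921). These libraries fall into 4 groups that share a batch, so the values mainly reflect group differences. Of the members, Cth had r = 0.448 with Chac1 (rank 2177 of 25150 genes), Cbs 0.187, Gsr -0.05, Chac2 -0.07, Gclm -0.26, Ggct -0.29, and Gss and Gclc -0.37 and -0.38.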

How the data were processed

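Forebrain RNA was depleted of ribosomal RNA before sequencing and hippocampus RNA was selected with poly(dT), per the labels' protocols. The authors deposited forebrain values as estimated counts and TPM per transcript, with transcript lengths, in the layout of kallisto, and hippocampus values as whole counts per gene. Programs listed in the submitters' processing notes are Bowtie2 2.2.3, featureCounts, HISAT2 2.1.0 and kallisto 0.42.4, with the build mm10. The program behind each file and the annotation release are not stated there.

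Estimated counts were summed per gene and rounded. Tests used edgeR 4.0.16 under R 4.3.3. Genes were kept by filterByExpr (minimum count 10), libraries were scaled by TMM, and the test was the robust quasi-likelihood F test, two-sided, and Benjamini-Hochberg adjustment over all genes. The 16 batch 1 forebrain libraries were fitted together. B6J knockout was tested in all 21 libraries with a batch term set by transgenic mouse 4, which then leaves the transgenic mean to mice 1 to 3. Each hippocampus assay was fitted apart, and translational efficiency as an interaction over 12 libraries. Scripts were tested on simulated data. DESeq2 1.42.0, RLE scaling, no filter, no robust step, transcript lengths, a replicate block and leaving out each library were alternatives. Errors are SD of CPM or TPM over libraries and SE of log2 fold changes.

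The members and gene lists were chosen with earlier results of these data known. All members are described; of the lists, every called gene is named, up to 8 per list, and the 5 genes most like Chac1. The list of Atf4-linked genes is given by counts. Of the cell marker lists, those for choroid plexus and astrocytes are given, and the others only for hippocampus footprints. Markers called in other comparisons are not named. Libraries are numbered replicates in the labels, and for the hippocampus nothing states separate animals. Knockout RNA library 1 had 1243 CPM of Xist, and libraries 2 and 3 had 0.381 and 0.466 CPM. By sex, library 1 is thus from another animal than libraries 2 and 3. Whether the other hippocampus libraries are from separate animals is unknown. The p-values measure the spread between these samples, which may be technical where animals are not separate. Of 42 pairs of libraries of 1 group, none agreed within counting error (lowest chi-square over degrees of freedom 2.92). RefSeq (GRCm38.p6) gave positions and promoters.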

Additional observations from a re-analysis of the deposited data

Results flagged for a closer look

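In 45 groups tested (9 members in 5 forebrain groups of 4 mice), 3 libraries stood far from the rest of their group by Dixon's criterion, which chance alone meets in about 1 of 20 groups. Chac1 in B6N knockout 3 was at 8.16 CPM, against 7.28 to 7.34 CPM in the other knockouts, a gap that is small beside the distance to B6N. Cbs in B6J transgenic mouse 2 was at 18.6 CPM, against 16.3 to 16.5 CPM in the other transgenic mice. Cth in B6J transgenic mouse 3 was at 2.63 CPM, against 1.74 to 1.85 CPM in the others, on 60 counts.

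The Chac1 effects of complete loss in B6N and of low n-Tr20 in B6J differed past the test by 1.01 ± 0.19 on the log2 scale (adjusted p = 0.0228, edgeR). The call was lost without the robust step (adjusted p = 0.0693), with transcript length offsets (adjusted p = 0.101) and in 5 fits with 1 library left out (adjusted p 0.0548 to 0.0874, all edgeR).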

How the results depend on the processing

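The Chac1 rise in B6N knockout forebrain was called under all 7 other settings and all 8 left-out libraries (log2 1.40 to 1.62). No alternative reversed a direction that was called. With transcript length offsets, Chac1 lost its call in B6J minus B6N (0.562, adjusted p = 0.083), in the difference of effects (0.986, adjusted p = 0.101) and in B6J knockout minus B6J transgenic (1.39, adjusted p = 0.101), leaving 0 members called in each. The difference of effects was also lost without the robust step (1.01, adjusted p = 0.0693; 0 members). With only B6J knockout 4, the male one, chosen after seeing the data, Chac1 was at 1.51 in B6J knockout minus B6J transgenic. In that fit the lone knockout was assumed to vary like the other groups. Over the settings other than left-out libraries, the adjusted p of Chac1 ran from 0.0151 to 0.083, 0.00372 to 0.101 and 3.4e-09 to 0.101 in these 3 comparisons. With the batch term and the repeat library left out together, Chac1 was called in B6J knockout minus B6J (0.912, adjusted p = 4.99e-06, against 0.273 with both), and 2 members were called there and against B6J transgenic, Cth being the second (0.62 and 0.55). The cause was not tested.

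Leaving out 1 library at a time, Chac1 ranged from 0.482 to 0.70 in B6J minus B6N, 0.916 to 1.13 in the difference of effects, 1.37 to 1.54 in B6J knockout minus B6J transgenic, 1.27 to 1.42 in hippocampus RNA and 1.01 to 1.23 in footprints. Members called ranged from 0 to 1 in these, from 0 to 2 in footprints (Cbs joined without B6N 1) and from 0 to 1 for translational efficiency (Cbs, -0.56 without B6N footprint 1, adjusted p = 0.0373). Leaving out transgenic mouse 4 leaves the batch difference without an estimate, so that value was not obtained. DESeq2 gave Chac1 no adjusted p in B6J knockout minus B6J transgenic.

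Replicate numbers did not pair the libraries: correlations of same-numbered libraries ran from -0.082 to 0.104 in forebrain, and 4 of 16 libraries correlated best with their own number. They ran from -0.28 to 0.104 in hippocampus RNA and from -0.024 to 0.069 in footprints (2 of 6 libraries in each). Over both hippocampus assays together they ran from -0.417 to 0.185 (4 of 12). With the replicate block, Chac1 in B6N knockout forebrain was 1.5, and 513 genes were called, against 481; in B6J transgenic minus B6N 1 member was called, Cbs (0.29, adjusted p = 0.0454). No other call of a member changed.

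Counts over all genes moved more. Over all settings and left-out libraries they ran from 174 to 751 in B6N knockout forebrain (481 as reported), 143 to 990 in B6J minus B6N (434), 9 to 3615 in B6J knockout minus B6J transgenic (63, the highest with the batch term and the repeat library both left out), 0 to 135 in hippocampus RNA (8), 32 to 1036 in footprints (708) and 0 to 496 for translational efficiency (0). Depth limits Cth and Chac1 most, at 27 to 76 and 44 to 185 counts per forebrain library outside the repeat.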
